A study of Homo sapiens with 23 samples.

Results

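The ONECUT genes encode a small family of transcription factors that bind DNA through a single cut domain followed by a homeodomain. ONECUT1, also called HNF6, is best known for its roles in the liver and pancreas, and all family members are expressed in newly formed neurons, including those of the spinal cord, retina and ventral brain. In neural tissue they are commonly used to mark neurons that are born early. All 3 members, ONECUT1, ONECUT2 and ONECUT3, were found by symbol among the 9497 genes listed for every RNA-seq library, and their values are described across 12 of the 23 samples of the series. The set was proposed because ONECUT3 was lower in KO+cJun than in KO organoids on both days. The difference between KO+cJun and KO is therefore a description here and carries no test for any member, and no test is given for ONECUT3 between genotypes.

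The libraries came from thalamus organoids (ThOs), free-floating neural tissue patterned toward the thalamus, grown from H1 cells, a human embryonic stem cell line. There were 3 genotypes: unedited WT, c-JUN knockout (KO) made with CRISPR/Cas9, and the knockout with c-JUN expressed again from a doxycycline-inducible construct (KO+cJun, called OE by the study). Each genotype was collected on day 25 and day 30, with 2 libraries per group and 3 pooled organoids per library. The study made more than 1 KO clone, the labels do not say which clone a library came from, and whether WT and KO organoids were given doxycycline is not given in the sources used here. Because nothing in the labels says that the libraries of a group came from separate differentiations, p-values measure the spread between these libraries.

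Library facts that touch the ONECUT values come first. The deposited values are a normalized whole-number expression value with the same median of 106 and the same range of 11 to 9910 in every library, so the sequencing depth behind a value is unknown. The transcript of the targeted gene went against the KO label. JUN, which encodes c-JUN, was at 139 and 153 in WT and 353 and 196 in KO on day 25, and at 128 and 162 in WT and 222 and 248 in KO on day 30. The libraries labelled KO therefore sat above every WT library for JUN, by 0.77 in log2 units (SE 0.23, adjusted p = 0.197 by limma). KO+cJun libraries held JUN values of 202 to 362, and differed from those labelled KO by -0.03 (SE 0.23, adjusted p = 0.949). The study itself reported that its KO cell lines lacked c-JUN protein by western blot. By RT-qPCR it found no c-JUN mRNA in KO cells during induction of neural progenitors and of cerebral organoids. In thalamus organoids of day 25 it reported, by ATAC-seq, less open chromatin at c-JUN in KO than in WT and OE. Whether the edited stretch of JUN lies in the measured transcript was not analysed here, and directions below refer to libraries by their label. The 2 KO libraries of a day also resembled each other less than other replicates did, with Spearman correlations over all genes of 0.821 on day 25 and 0.769 on day 30 against 0.936 to 0.959 in the other groups. The median correlation of a library with the other 11 was 0.854 and 0.830 for the KO libraries of day 25 and 0.745 for replicate 2 of KO on day 30, while it was 0.929 for replicate 1 of KO on day 30 and 0.884 to 0.934 for all WT and KO+cJun libraries.

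ONECUT1 (ENSG00000169856) lies on chromosome 15 from 52755053 to 52791078 on the minus strand, ONECUT2 (ENSG00000119547) on chromosome 18 from 57435374 to 57491298 on the plus strand, and ONECUT3 (ENSG00000205922) on chromosome 19 from 1753506 to 1780988 on the plus strand, all on GRCh38. Since the members moved together between libraries, the 250 bases upstream of the RefSeq start site are printed for ONECUT1 and ONECUT2, the members with an entry in the RefSeq promoter table (GRCh38.p14). RefSeq starts ONECUT1 at 52790336, inside the span that the deposited tables give, so that the printed ONECUT1 window lies within that span. Both are given 5′ to 3′ on the strand of the gene, with CCAAT boxes and GC boxes (GGGCGG or its reverse complement CCGCCC) in capitals.
ONECUT1, chr15:52790337-52790586, minus strand: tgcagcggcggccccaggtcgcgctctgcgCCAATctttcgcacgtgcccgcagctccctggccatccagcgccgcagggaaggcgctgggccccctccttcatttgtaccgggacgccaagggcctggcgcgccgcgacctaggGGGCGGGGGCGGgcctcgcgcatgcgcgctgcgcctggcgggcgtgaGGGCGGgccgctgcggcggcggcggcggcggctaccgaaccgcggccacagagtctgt
ONECUT2, chr18:57435124-57435373, plus strand: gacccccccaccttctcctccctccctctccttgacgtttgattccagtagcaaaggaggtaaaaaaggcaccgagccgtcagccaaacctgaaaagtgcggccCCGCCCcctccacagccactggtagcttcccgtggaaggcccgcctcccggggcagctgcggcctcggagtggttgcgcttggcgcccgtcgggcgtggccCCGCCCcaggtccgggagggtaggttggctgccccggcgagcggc

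The ONECUT1 window held a CCAAT box at base -220 from the start site and GC boxes at -105, -99 and -58. The ONECUT2 window held GC boxes at -146 and -45. The ONECUT1 stretch was 76.8% G and C and the ONECUT2 stretch 68.8%, where the median of 35116 promoters was 58%. A CCAAT box was present in 32.0% of those promoters and a GC box in 42.6%. Searched on both strands, neither window contained TGANTCA (N for any base), a pattern that takes in AP-1 sites, which c-JUN dimers bind, and is wider than them. That pattern was present in 6.57% of promoters. Neither window held a CRE (TGACGTCA, 1.65%), an ONECUT core (ATCGAT, 0.655%, or ATTGAT, 5.58%) or a TATA box (TATAAA, 10.7%). These are counts of letters within the windows only, and sites elsewhere were not searched.

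ONECUT3 was the most variable member. In WT it was at 90 and 52 on day 25 and 70 and 94 on day 30. In KO it was at 238 and 364 on day 25 and 81 and 222 on day 30. In KO+cJun it was at 42 and 46 on day 25 and 24 and 16 on day 30. The 4 KO+cJun libraries thus lay below all 4 WT libraries, and the KO libraries lay above WT on day 25. On day 30 the 2 KO libraries differed 2.74-fold, and the lower of them fell within the WT range. From its lowest to its highest library ONECUT3 spanned 22.8-fold, and its SD over the 12 libraries, 1.32 on the log2 scale, exceeded that of 99.9% of genes. The set was chosen by ONECUT3 values in KO and KO+cJun, so this rank partly follows from the choice.

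ONECUT2, which shares many of its known roles with ONECUT1, followed the same order of genotypes over a smaller range. It was at 232 and 146 in WT, 476 and 403 in KO and 102 and 176 in KO+cJun on day 25. On day 30 it was at 187 and 146 in WT, 158 and 338 in KO and 94 and 105 in KO+cJun. The KO libraries were above WT on day 25 and straddled WT on day 30, and KO+cJun lay below WT on day 30 only, as did 21.8% of genes on that day. Its lowest and highest libraries were 5.06-fold apart.

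ONECUT1 had the smallest range, 4.09-fold. It was at 47 and 24 in WT, 90 and 66 in KO and 22 and 33 in KO+cJun on day 25. On day 30 it was at 42 and 43 in WT, 34 and 72 in KO and 30 and 34 in KO+cJun. Both KO libraries exceeded both WT libraries on day 25, and on day 30 replicate 1 of KO fell below WT while replicate 2 lay above it. Several ONECUT1 values were close to the lowest value listed for any gene, 11. So were the ONECUT3 values of KO+cJun on day 30, 24 and 16. At such low values, steps of whole numbers and the pseudocount of 1 compress differences.

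**Figure D1:**
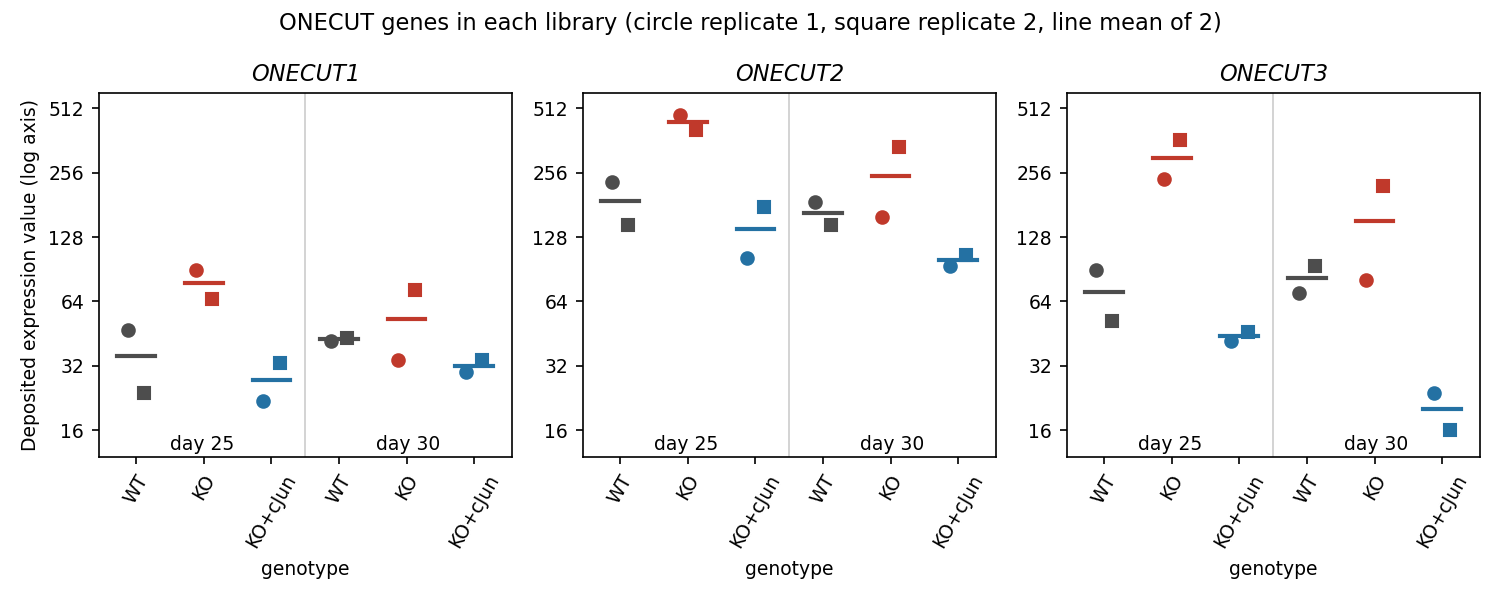
Deposited expression value (log axis) of ONECUT1, ONECUT2 and ONECUT3 in each of the 12 libraries by genotype and day, with circles for replicate 1, squares for replicate 2 and lines for the mean of 2. On day 25 both KO libraries lie above both WT libraries for every member, and on day 30 replicate 1 of KO falls to the WT range or below it.

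The first comparison sets the libraries labelled KO against WT, and was designed to ask about loss of c-JUN. Averaged over both days, ONECUT1 and ONECUT2 were higher in KO than in WT without passing the test. The log2 difference was 0.86 for ONECUT2 (SE 0.27, 95% interval 0.27 to 1.45, adjusted p = 0.208 by limma) and 0.69 for ONECUT1 (SE 0.31, interval 0.01 to 1.38, adjusted p = 0.321). ONECUT3 differed by 1.40 (SE 0.33), given without a test. Calls required at least a 2-fold change with an adjusted p under 0.05. By this rule 2 of the 9497 genes, 0.0211%, were called between KO and WT, while 1441 had an unadjusted p under 0.05, and neither of the 2 called genes (MXRA5 and DPY19L1, named after their values were seen) was an ONECUT gene.

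The estimates were larger on day 25 than on day 30. On day 25 the log2 difference between KO and WT was 1.17 for ONECUT1 (adjusted p = 0.286), 1.25 for ONECUT2 (adjusted p = 0.224) and 2.09 for ONECUT3 (SE 0.46, not tested), with 0.0105% of genes called on that day. All 3 members had KO libraries above WT without overlap on day 25, as did 19.3% of all genes. On day 30 the differences were 0.22 for ONECUT1 (adjusted p = 0.882), 0.48 for ONECUT2 (adjusted p = 0.690) and 0.72 for ONECUT3 (SE 0.46, not tested), with 0% of genes called and 699 at an unadjusted p under 0.05, and the libraries of every member overlapped. The direction on day 30 rested on replicate 2 of KO, without which the differences were -0.31 for ONECUT1, -0.064 for ONECUT2 and -0.0022 for ONECUT3, whereas without replicate 1 they were 0.75, 1.03 and 1.44. The change of the KO difference between days did not pass the test either, with -0.96 for ONECUT1 (95% interval -2.32 to 0.41, adjusted p = 0.813) and -0.76 for ONECUT2 (interval -1.95 to 0.42, adjusted p = 0.819) by limma.

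Whether ONECUT2 was called depended on the KO library with the highest median correlation with the other libraries, 0.929. Without replicate 1 of KO on day 30, ONECUT2 passed the test, with a log2 difference of 1.14 (SE 0.24, adjusted p = 0.0164 by limma), and the number of genes called between KO and WT went from 2 to 538. ONECUT3 was 1.76 higher in KO without that library and 0.89 higher without both KO libraries of replicate 2. In replicate 1 of KO on day 30 the members were at 34, 158 and 81 for ONECUT1, ONECUT2 and ONECUT3, next to 72, 338 and 222 in its partner.

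The second comparison sets the libraries labelled KO+cJun against WT. ONECUT3 was lower by 1.31 on the log2 scale in KO+cJun (SE 0.33, given without a test), with mean values of 32.0 ± 14.3 (SD, n = 4) in KO+cJun and 76.5 ± 19.4 (SD, n = 4) in WT over both days. Its KO+cJun libraries lay below WT without overlap on both days, as did 4.34% of all genes in this direction. The difference was -0.63 on day 25 and -1.99 on day 30 (SE 0.46 for each). The direction of the ONECUT1 difference on day 25, -0.31, turned to 0.16 without replicate 1 of WT. ONECUT2 differed by -0.59 (SE 0.27, 95% interval -1.18 to -0.001, adjusted p = 0.607) and ONECUT1 by -0.36 (SE 0.31, interval -1.04 to 0.33, adjusted p = 0.884), neither past the test by limma. Of all genes 15, or 0.158%, were called between KO+cJun and WT.

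The third comparison, KO+cJun against KO, is the contrast by which the set was chosen. ONECUT3 differed by -2.71 on the log2 scale (SE 0.33), with -2.72 on day 25 and -2.71 on day 30, the latter ranging from -3.44 to -1.99 as either KO library of that day was left out. In this contrast 99.9% of genes had a smaller difference, a rank that follows from the choice and gives it no support. ONECUT2 differed by -1.46 (SE 0.27), with -1.70 on day 25 and -1.21 on day 30 (-0.66 without replicate 2 of KO). ONECUT1 differed by -1.05 (SE 0.31), with -1.48 on day 25 and -0.62 on day 30 (-0.088 without replicate 2 of KO). On day 25 the KO+cJun libraries lay below KO without overlap for all 3 members, as for 22.4% of genes. Over both days pooled this held for ONECUT3 only, as for 4.51% of genes. For ONECUT1 the KO+cJun and KO libraries met at a value of 34 on day 30. For comparison, 211 genes or 2.22% were called in this contrast, 1.05% as higher and 1.17% as lower. The WT, KO and KO+cJun comparisons share libraries and are not independent of each other.

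**Figure D2:**
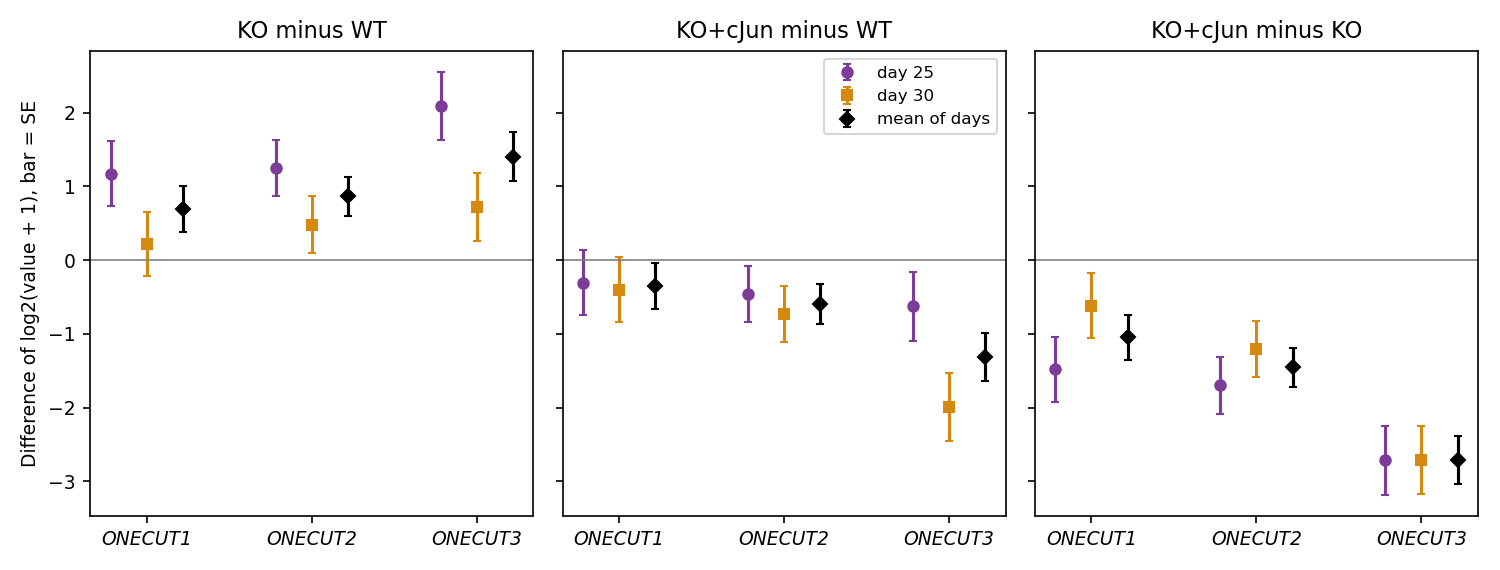
Differences of log2(value + 1) for the 3 ONECUT genes in 3 comparisons, as estimates with SEs from the model over 12 libraries, for day 25, day 30 and their mean. Differences of KO from WT lie above 0, those of KO+cJun from KO, the contrast by which the set was chosen, lie below 0, and ONECUT3 has the largest of each, -2.71 between KO+cJun and KO.

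Between day 25 and day 30, averaged over genotypes, no member passed the test. ONECUT3 differed by -0.67 (SE 0.27, 95% interval -1.26 to -0.08, adjusted p = 0.399), ONECUT2 by -0.50 (SE 0.22, interval -0.98 to -0.02, adjusted p = 0.428) and ONECUT1 by -0.02 (SE 0.25, interval -0.58 to 0.54, adjusted p = 0.985) by limma. No gene of the 9497 (0%) was called between the days, and 1073 had an unadjusted p under 0.05. In WT alone the difference between days was 0.33 for ONECUT1, -0.15 for ONECUT2 and 0.24 for ONECUT3, with SEs of 0.38 to 0.46 and adjusted p-values of 1.00. ONECUT3 was lower on day 30 in KO (-1.13) and in KO+cJun (-1.12), with an SE of 0.46 for each. The KO figure averages day 30 libraries at 81 and 222. That of KO+cJun rests on day 30 values of 24 and 16, close to the lowest value listed for any gene, 11.

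The members tracked each other over the 12 libraries. On the log2 scale Pearson's r was 0.920 between ONECUT2 and ONECUT3, 0.907 between ONECUT1 and ONECUT2 and 0.815 between ONECUT1 and ONECUT3, and Spearman's rho was 0.848, 0.853 and 0.841. These are descriptions over libraries that share genotype, day and normalization. Among the other 9496 genes, ONECUT3 ranked 1 and ONECUT1 ranked 5 by likeness to ONECUT2, ONECUT2 ranked 4 and ONECUT1 ranked 93 by likeness to ONECUT3, and ONECUT2 ranked 8 and ONECUT3 ranked 58 by likeness to ONECUT1. Over the 8 libraries that were not KO, r was 0.772, 0.648 and 0.472 for the same pairs.

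**Figure D3:**
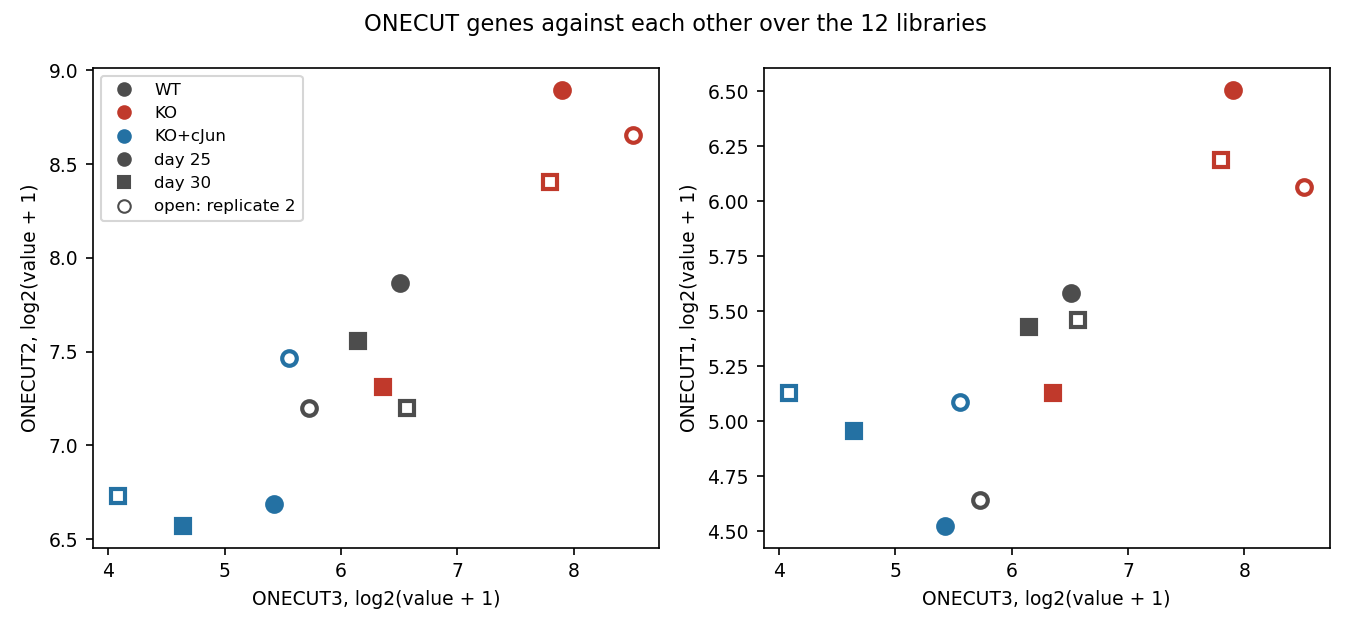
ONECUT2 (left) and ONECUT1 (right) against ONECUT3 as log2(value + 1), each point a library, coloured by genotype, circles for day 25 and squares for day 30, open for replicate 2. The 3 high KO libraries sit at the top right, the KO library of day 30 that fell to WT levels sits among the WT points, and KO+cJun libraries sit at the left.

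In bulk tissue, fewer cells of a type and less RNA per cell cannot be told apart. Setting the family beside genes that most neurons express, as done here, does not tell them apart either. The mean log2 level of 24 pan-neuronal genes was 8.86 ± 0.29 in WT, 8.94 ± 0.22 in KO and 8.90 ± 0.25 in KO+cJun (SD, n = 4 each), and the genotypes overlapped. Relative to that mean, ONECUT3 was at -2.62 ± 0.42 in WT, -1.30 ± 1.02 in KO and -3.97 ± 0.86 in KO+cJun. The pan-neuronal mean differed by 0.08 between KO and WT and by -0.04 between KO+cJun and KO. Subtracting so small a difference could not change the order of genotypes, which stayed as before scaling. The share of neurons that express ONECUT genes was not measured. ONECUT2 stood at -1.40 ± 0.54, -0.62 ± 0.73 and -2.03 ± 0.45, and ONECUT1 at -3.58 ± 0.46, -2.97 ± 0.61 and -3.97 ± 0.23, in the same order of genotypes.

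**Figure D4:**
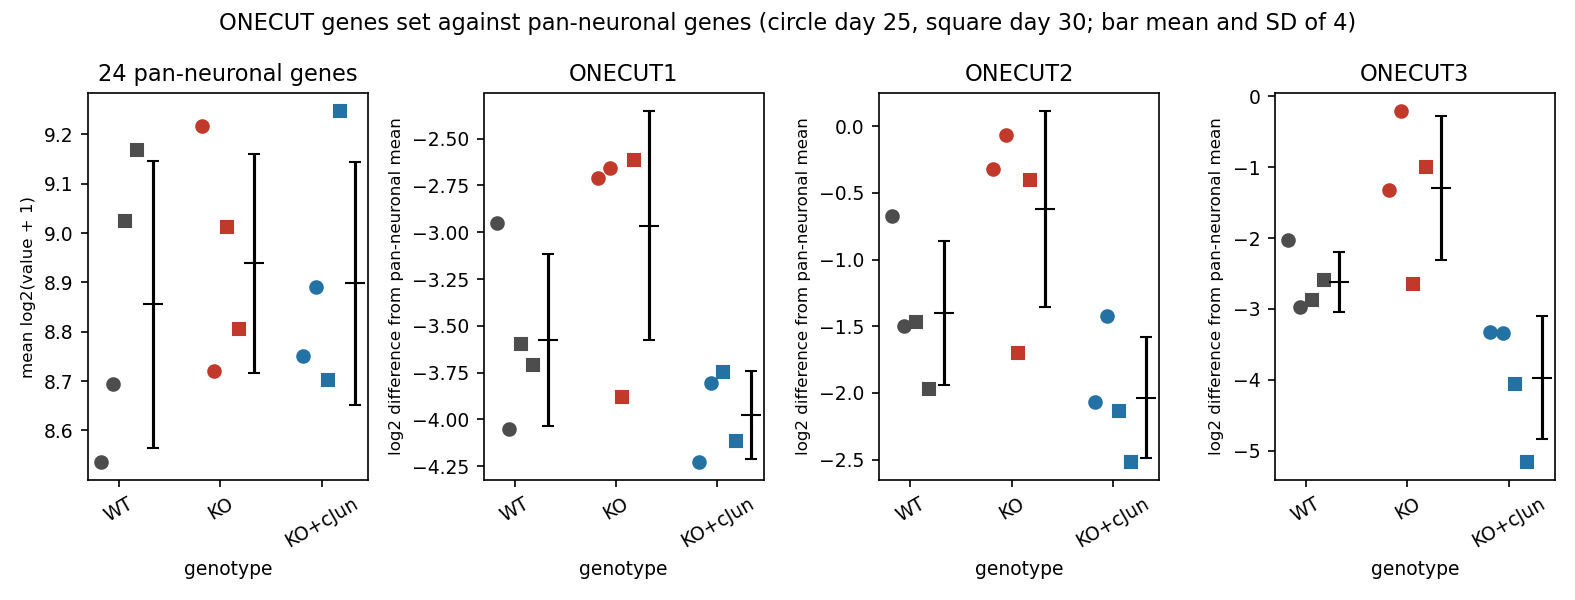
Mean log2(value + 1) of 24 pan-neuronal genes in each library (left) and the log2 difference of each ONECUT gene from that mean, by genotype, circles for day 25 and squares for day 30, with the mean and SD of 4 as bars. The pan-neuronal mean differs little between genotypes (8.86, 8.94 and 8.90), while ONECUT3 ranges from -3.97 in KO+cJun to -1.30 in KO.

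Neural progenitor genes were at their lowest in the libraries with the highest ONECUT levels. The mean log2 level of 16 progenitor genes was 7.41 to 7.66 in the 3 KO libraries with high ONECUT3 and 8.31 in the KO library of day 30 with ONECUT3 at 81. In WT the progenitor mean ranged from 8.15 to 8.55 and in KO+cJun from 8.39 to 8.77, so these overlapped although ONECUT3 did not. All 16 progenitor genes had a lower mean in KO than in WT, with a median log2 difference of -0.58 against -0.02 over all genes. None was called with all 12 libraries, but this did not hold under all alternatives run. The part of progenitor genes in the ONECUT differences was not tested. Between KO+cJun and KO the median was 0.81, with SOX2, a factor that keeps progenitors undifferentiated, higher by 1.27 (adjusted p = 0.0429) and MKI67, a marker of dividing cells, higher by 1.55 (adjusted p = 0.0320). Among the fits leaving out 1 library, SOX2 was called only in that without replicate 1 of KO on day 30, and MKI67 only in those without replicate 1 of KO on day 25 or either KO library of day 30, and over all alternatives their adjusted p-values reached 0.177 and 0.144.

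None of the listed relatives by DNA-binding domain passed the test. Of 5 cut-class homeobox genes 3 were listed, CUX1, CUX2 and SATB1, and none was called in any comparison. Between KO+cJun and KO, CUX1 differed by 0.14 (adjusted p = 0.533) and SATB1, a chromatin organizer, by 0.24 (adjusted p = 0.670), where ONECUT3 differed by -2.71.

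Factors that mark when a neuron was born were examined next, because ONECUT factors are counted among those of early-born neurons. Of 11 temporal factors 5 were listed. ZFHX3, a zinc-finger homeobox factor of neurons born after the ONECUT stage, was at 104 to 200 in KO, 252 to 278 in WT and 211 to 418 in KO+cJun, and rose by 1.04 from KO to KO+cJun (SE 0.23, adjusted p = 0.0366). KO lay below both other genotypes in every library for ZFHX3. Among the fits leaving out 1 library it was called only in those without replicate 1 of KO on either day or replicate 1 of KO+cJun on day 30, and the adjusted p reached 0.176. NFIA, a factor of later-born neurons and glia, differed by -0.99 (SE 0.28, adjusted p = 0.0759), and by -1.24 with an adjusted p of 0.0105 without replicate 1 of KO on day 30. ZFHX4, a relative of ZFHX3, differed by -0.36 (adjusted p = 0.662).

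Neurogenic factors, which drive progenitors into the neuronal path, were mostly higher in KO+cJun. Of 18 such genes 10 were listed, 9 of the 10 had a higher mean in KO+cJun than in KO, and 2 were called. HES6, a promoter of neuronal differentiation, was at 42 to 90 in KO and 195 to 324 in KO+cJun, and rose by 1.72 (SE 0.24, adjusted p = 0.00845). It also rose against WT, by 1.40 (adjusted p = 0.0495), a call that, among the fits leaving out 1 library, held only in those without a KO library of day 30, with adjusted p-values of up to 0.327. The HES6 call against KO was lost only without replicate 2 of KO+cJun on day 30 among the leave-one-out fits (adjusted p = 0.0512), and when only the compared libraries were fitted (0.0546). NHLH1, a factor of newborn neurons, rose by 1.69 (SE 0.39, adjusted p = 0.0422) and, among the fits leaving out 1 library, was called only in those without replicate 1 of KO on either day, with adjusted p-values of up to 0.181. The median of the 10 listed genes was 0.55 between KO+cJun and KO and -0.39 between KO and WT, where the median of all genes was 0.01 and -0.02.

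Identity factors of early neurons outside the family did not pass the test. Of 36 genes in this list 10 were listed, none was called in any comparison (1 between KO+cJun and KO without replicate 1 of KO on day 30), and their median between KO+cJun and KO was 0.26 against 0.01 over all genes. LHX9, a LIM homeobox factor of thalamic neurons, differed by 0.37 (adjusted p = 0.608) and EBF3, a factor of young neurons, by 0.08 (adjusted p = 0.766). Among 12 thalamus markers 5 were listed and none was called, their summed value was 509 to 826 in WT, 371 to 881 in KO and 468 to 1241 in KO+cJun, and TCF7L2, a defining factor of thalamic neurons, was present in every library at 109 to 465.

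Within the pan-neuronal list the calls went in both directions. Of 25 genes 24 were listed, and their median between KO+cJun and KO was -0.004. SYT4, a synaptotagmin of secretory vesicles, was at 1332 to 2400 in WT, 1214 to 1606 in KO and 480 to 640 in KO+cJun. It fell by 1.35 from KO to KO+cJun (SE 0.15, adjusted p = 0.00212) and differed by -1.80 between KO+cJun and WT (adjusted p = 0.000715). Unlike ONECUT3, SYT4 was not higher in KO than in WT, with a log2 difference of -0.45 (adjusted p = 0.221). CNTN2, an axonal adhesion protein, rose by 1.50 (SE 0.35, adjusted p = 0.0441) and, among the fits leaving out 1 library, was called only in those without replicate 1 of KO on either day, with adjusted p-values of up to 0.193.

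Markers of cells outside the neural lineage were read because ONECUT1 and ONECUT2 are also liver, pancreas and retina genes. None of 14 endoderm and liver markers was listed, and only CRX, a factor of photoreceptors, was listed of 10 eye and retina markers, at 15 to 102, with a difference of -0.34 between KO+cJun and KO (adjusted p = 0.683). A gene was listed only where its value exceeded 10 in every library, so an unlisted gene may still have been expressed in some. Of 10 choroid plexus markers 7 were listed, with summed values of 2221 to 5108 in WT, 1711 to 5473 in KO and 1952 to 4740 in KO+cJun, and differences between KO+cJun and KO of 0.86 for TTR (adjusted p = 0.431) and 0.05 for OTX2 (adjusted p = 0.849). CLDN1, a tight junction protein, was the called gene of that list, at 146 to 172 in WT, 232 to 460 in KO and 22 to 82 in KO+cJun, with a log2 difference of -3.20 between KO+cJun and KO (SE 0.35, adjusted p = 0.00212), the same order of genotypes as ONECUT3, and the part of choroid plexus cells in the ONECUT values was not tested. Of 11 mesenchyme and neural crest markers 3 were listed, with sums of 283 to 502 in WT, 309 to 1120 in KO and 182 to 410 in KO+cJun, and none was called, although COL1A2, a collagen chain, was at 162 to 734 in KO and 61 to 224 in KO+cJun (-1.63, adjusted p = 0.0578) next to PDGFRB (-0.56, adjusted p = 0.306). COL1A2 passed the test when replicate 1 of KO on day 25 (adjusted p = 0.0476), of KO on day 30 (0.0165) or of KO+cJun on day 30 (0.0239) was left out.

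Genes whose pattern over the 12 libraries was most like ONECUT3 were led by CLCN3, a chloride and proton exchanger of endosomes (r = 0.954), KLHL21, an adaptor of a ubiquitin ligase (0.931), and KLHDC9 (0.927). ONECUT2 came next at 0.920. The others of the top 10 were XPR1, a phosphate exporter (0.913), HCRTR2, an orexin receptor (0.909), ZRANB2-AS2 (0.907), PNMA8A (0.905), ATP8B2, a phospholipid flippase (0.898), and HCN2, a pacemaker channel (0.896). ZRANB2-AS2 is an antisense gene and its reads cannot be told apart from those of its partner unless strand was used in counting, which is not given in the sources used here. HCN2 was at 22 to 37 in WT, 38 to 76 in KO and 17 to 28 in KO+cJun. Several genes of the top 10 came close to the lowest value listed for any gene, 11, where steps of whole numbers weigh on r. Among them were HCRTR2 (11 to 41), KLHDC9 (12 to 62) and ZRANB2-AS2 (12 to 30). Leaving out any single library kept r of these 10 genes between 0.854 and 0.989.

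Genes with a pattern opposite to ONECUT3 included NHLH1 (r = -0.935), ADGRG1, an adhesion receptor of progenitors (-0.929), SUPT16H, a histone chaperone subunit (-0.927), and PDS5B, a cohesin regulator (-0.926). NHLH1 ranged from 16 to 168 over the libraries and was high where ONECUT3 was low.

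The closest genes to the other members were partly shared. For ONECUT2 they were ONECUT3, PPM1H, a phosphatase (0.919), RALGAPA1, a subunit of a GTPase activating complex (0.919), CCDC30 (0.908) and ONECUT1. For ONECUT1 they were TOM1L2 (0.921), SYT14, a synaptotagmin (0.921), ENKD1 (0.919), CCDC30 (0.916) and EIF2B4, a translation initiation factor subunit (0.913). CCDC30, at low values of 17 to 56, was the gene named for both.

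**Figure D5:**
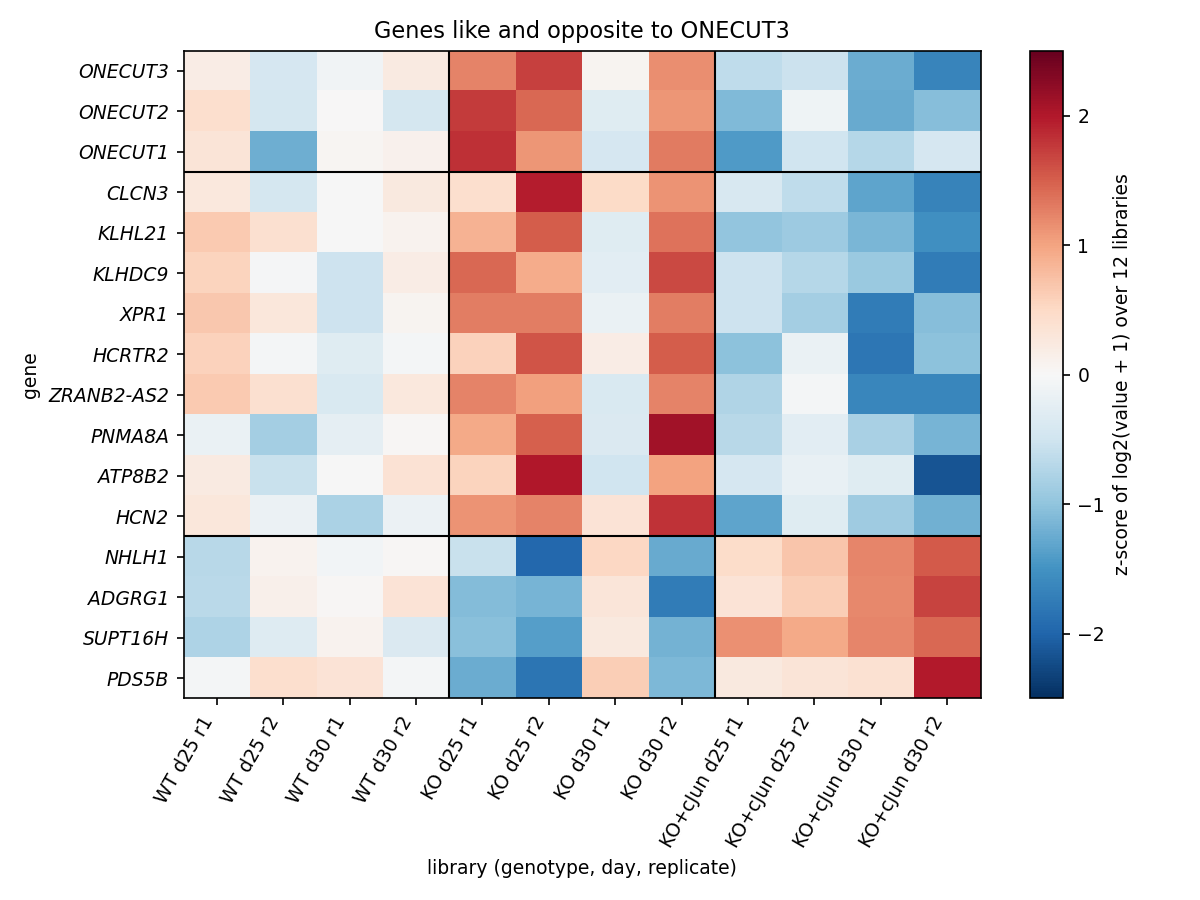
Levels of the ONECUT genes, the genes most like ONECUT3 and 4 with an opposite pattern, as z-scores of log2(value + 1) over the 12 libraries, with libraries in columns by genotype, day and replicate. The genes were chosen by this likeness, and the KO library of day 30 replicate 1 is pale in nearly every row.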

How the data were processed

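RNA-seq was analysed for 12 libraries of thalamus organoids, 3 genotypes on 2 days with 2 libraries per group, and the 11 ATAC-seq and CUT&Tag samples were not used here. The authors extracted total RNA from 3 pooled organoids, removed ribosomal RNA and marked strand with dUTP. The submitters' processing notes name bcl2fastq, RSEM, Bowtie2 and hg19 with no role, while the deposited positions match GRCh38. The authors deposited 1 normalized value per gene, a score rounded to whole numbers. It has the same median in every library and exceeds 10 for each gene listed. The normalization is not given in the sources used here. Depth is therefore unknown, and count models were not used.

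Values were analysed as log2(value + 1), which slightly understates changes of low genes. The filter, a value of at least 1 in 2 libraries, removed 0 genes. A model with 6 group means was fitted to the 12 libraries in limma 3.58.1 (R 4.3.3) with an intensity trend, leaving 6 residual degrees of freedom. P-values are two-sided and adjusted by Benjamini-Hochberg over 9497 genes. A call needed an adjusted p under 0.05 and a 2-fold change. The fit was tested on simulated data. Tables and figures were made with Python 3.11.15, pandas 2.3.3 and matplotlib 3.10.9.

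The members and gene lists were chosen with earlier results of these data known. Named were the members, JUN, the 10 genes most like and the 5 most opposite to ONECUT3 by Pearson's r, the 5 most like each other member, and of each list the called genes or, with fewer than 2 called, the 2 with the highest mean. CUX2, MXRA5 and DPY19L1 are named besides, and 1 gene that this rule takes in is not reported here. Alternatives were another pseudocount, scaling, filter or threshold, library weights, no trend, a replicate block, fits of only the compared libraries, and leaving out each library.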

Additional observations from a re-analysis of the deposited data

How the results depend on the processing

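Averaged over both days, every ONECUT difference between genotypes kept its direction under all alternatives run. Over them, KO+cJun minus KO ranged from -3.08 to -2.20 for ONECUT3, -1.73 to -1.18 for ONECUT2 and -1.31 to -0.78 for ONECUT1 on the log2 scale. KO minus WT ranged from 0.59 to 1.14 for ONECUT2, passing the test only without replicate 1 of KO on day 30 (1.14), from 0.43 to 0.96 for ONECUT1 and from 0.89 to 1.76 for ONECUT3. Leaving out single libraries moved ONECUT1 between days from -0.20 to 0.16 (-0.27 without both KO libraries of replicate 2), with values above 0 of 0.14, 0.053, 0.073, 0.16 and 0.0083 without, in turn, WT day 25 replicate 1, KO day 25 replicate 1, KO+cJun day 25 replicate 2, KO day 30 replicate 1 and KO+cJun day 30 replicate 1.

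Of the values for single days, KO minus WT on day 30, leaving out 1 library, ranged from -0.31 to 0.75 for ONECUT1, -0.064 to 1.03 for ONECUT2 and -0.0022 to 1.44 for ONECUT3, the lowest without replicate 2 of KO (the same without both KO libraries of replicate 2). KO+cJun minus WT on day 25 turned to 0.16 for ONECUT1 without replicate 1 of WT. In WT the difference between days ranged, in turn, from -0.14, -0.49 and -0.15 to 0.80, 0.18 and 0.63, with ONECUT2 at 0.18 without replicate 1 of day 25 and 0.023 without replicate 2 of day 30.

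Counts of called genes moved far more. For KO against WT (2) they were 0 with library weights, 0 without the intensity trend, 6 with only the compared libraries, 54 without both KO libraries of replicate 2, and 0 to 538 leaving out 1 library, the highest without replicate 1 of KO on day 30. For KO+cJun against WT (15) they were 91, 4, 68, 64 and 3 to 17. For KO+cJun against KO (211) they were 41 with weights, 132 without the trend, 11 with only the compared libraries, and 26 (without replicate 2 of KO+cJun on day 30) to 964 (without replicate 1 of KO on day 30). Of the 11, 9.09% were higher, against 47.4% of the 211. Between days (0) they were 75 without both KO libraries of replicate 2, an alternative chosen after seeing the data, and 0 to 34 leaving out 1 library.

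Replicate numbers did not pair the samples: 1 of 15 pairs of groups had deviations correlated above 0.1 (range -0.21 to 0.26). With the replicate block, 5 genes were called for KO+cJun against WT and 139 for KO+cJun against KO, no ONECUT gene changed its side of the test, and 4 named calls fell outside the threshold: NHLH1 (adjusted p = 0.0560), SOX2 (0.0617) and CNTN2 (0.0617) against KO, and HES6 against WT (0.0825). An adjusted p alone as the threshold gave 2, 20, 313 and 0 genes for KO against WT, KO+cJun against WT, KO+cJun against KO and the days.

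Between KO+cJun and KO, with 1 library or both KO libraries of replicate 2 left out, SATB1 ranged from -0.18 to 0.66, ZFHX4 from -1.14 to 0.14, LHX9 from -0.15 to 0.80, TCF7L2 from -0.035 to 1.12, OTX2 from -0.023 to 0.13 and CRX from -0.85 to 0.18, each changing sign. Those beyond 0 were SATB1 without replicate 2 of KO on day 30 (-0.18) and without both (-0.06), ZFHX4 without replicate 1 of KO on day 25 (0.14), LHX9 without replicate 2 of KO+cJun on day 25 (-0.05) and without both (-0.15), TCF7L2 without both (-0.035), OTX2 without replicate 1 of KO on day 25 (-0.0029) or replicate 2 on day 30 (-0.023), and CRX without replicate 1 of KO on day 25 (0.18). The cause of these moves was not tested. A filter at a mean of 50 removed ONECUT1, fitting only the compared libraries does not apply to days, and count-based tools were not run. With 2 libraries per group and unknown depth, a log2 difference of 1.25 (ONECUT2, KO minus WT on day 25) did not pass the test.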
